A study of Mus musculus with 2 samples.

Results

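The oligoadenylate synthetase (OAS) genes examined here were the 8 rows whose gene symbol was Oas1a, Oas1b, Oas1c, Oas1g, Oas2, Oas3, Oasl1 or Oasl2, of 54713 rows in the table of all genes. The rule took them by gene symbol. RNA was sequenced from 2 sublines of SV40 MES13, a mouse kidney line that the labels describe as mesangial, the contractile cell of the glomerular tuft, and that carries SV40 sequences. The Lv_AI662270 line had been infected with a lentivirus that expresses the long noncoding RNA AI662270 and is labelled as overexpressing it. The Lv_NC line had received the control virus and is labelled WT. Both lines were labelled untreated. Per the labels, they were selected with puromycin at 0.5 mg/ml and kept at 0.25 mg/ml in medium with 10% serum. The unit of the puromycin dose is given as labelled, may be a slip and could not be checked. Neither the promoter in the virus nor whether a line is a clone or a pool is given in the sources used here. With 1 library per group, every difference given is one between 2 libraries, without replication, and not a test of the conditions.

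OAS proteins are interferon-induced sensors of double-stranded RNA. The catalytically active members respond by joining ATP into short oligoadenylates with 2′-5′ bonds (2-5A), and 2-5A is a second messenger that leads to the cutting of cellular and viral RNA and so limits virus growth. Interferon raises OAS transcription through factors that bind interferon-stimulated response elements in the promoters. In the mouse the Oas1 gene has been copied many times, and the OAS-like genes encode proteins with a ubiquitin-like tail.

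The Lv_AI662270 library held 15062482 counts and the Lv_NC library 15727023. AI662270 itself had 241 counts in the Lv_AI662270 library and 0 in the Lv_NC library, which allows up to 3 counts. The 8 mesangial markers, 5 of them measured, summed to 608 CPM (counts per 1000000, scaled to library size) in the Lv_AI662270 library and 241 CPM in the Lv_NC library, and Itga8 and Thy1 had 0 counts in both. Most of that sum was Vim, at 569 CPM in the Lv_AI662270 library and 221 CPM in the Lv_NC library. Acta2 was also higher, with 171 counts in the Lv_AI662270 library and 12 in the Lv_NC library, while Gata3 was lower, with 25 counts in the Lv_AI662270 library and 76 in the Lv_NC library. The epithelial genes Cdh1 and Epcam had 1030 and 1626 counts in the Lv_AI662270 library, against 2175 and 2810 in the Lv_NC library, so epithelial markers were present beside the mesangial ones. The other measured tubule markers, Cubn and Lrp2, had 73 and 740 counts in the Lv_AI662270 library, against 33 and 693 in the Lv_NC library. The 6 tubule markers, 4 of them measured, summed to 223 CPM in the Lv_AI662270 library and 376 CPM in the Lv_NC library, and the 5 podocyte markers, 2 of them measured, to 83.2 CPM in the Lv_AI662270 library and 149 CPM in the Lv_NC library. The measured podocyte markers, Podxl and Synpo, had 661 and 614 counts in the Lv_AI662270 library, against 1869 and 394 in the Lv_NC library. Wt1, not measured, was higher like Synpo, with 22 counts in the Lv_AI662270 library and 0 in the Lv_NC library. None of 5 endothelial markers was measured, and Umod, Aqp2 and Nphs1 were at 0 in both libraries. The endothelial markers summed to 22 counts in the Lv_AI662270 library and 9 in the Lv_NC library, with Kdr at 13 and 1. The 9 immune cell markers, 2 of them measured, summed to 15.1 CPM in the Lv_AI662270 library and 34.5 CPM in the Lv_NC library. Of these, Adgre1, Itgam and Cd3e were at 0 in both, and Ptprc, the pan-leukocyte marker, had 1 count in the Lv_AI662270 library and 5 in the Lv_NC library. Csf1r, the receptor for macrophage colony-stimulating factor, had 150 counts in the Lv_AI662270 library and 419 in the Lv_NC library. Most of the immune sum was Csf1r, at 9.63 CPM in the Lv_AI662270 library and 27.6 CPM in the Lv_NC library. The other measured immune marker, Cd68, had 76 counts in the Lv_AI662270 library and 99 in the Lv_NC library. Cd68 was not past the 2-fold rule given below. Lyz2, not measured, went the other way, with 7 counts in the Lv_AI662270 library and 2 in the Lv_NC library. The part of these differences in the OAS values was not tested.

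The 8 genes lie on chromosome 5 in build mm10. Oasl2 and Oasl1 are neighbours on the plus strand, from 114896936 to 114912234 (ENSMUSG00000029561) and from 114923240 to 114937915 (ENSMUSG00000041827). The others belong to a cluster of 191 kilobases, in which Oas2 (120730333 to 120749853, ENSMUSG00000032690), Oas3 (120753098 to 120777661, ENSMUSG00000032661), Oas1c (120800194 to 120812514, ENSMUSG00000001166), Oas1g (120876142 to 120887613, ENSMUSG00000066861) and Oas1a (120896256 to 120907521, ENSMUSG00000052776) are on the minus strand. Oas1b (120812635 to 120824163, ENSMUSG00000029605) is on the plus strand and is annotated as a polymorphic pseudogene, since many laboratory strains carry a truncating allele. All 8 had the same coordinates in GENCODE M21. The remaining Oas1d, Oas1e, Oas1f and Oas1h lie in the same cluster.

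**Figure D1:**
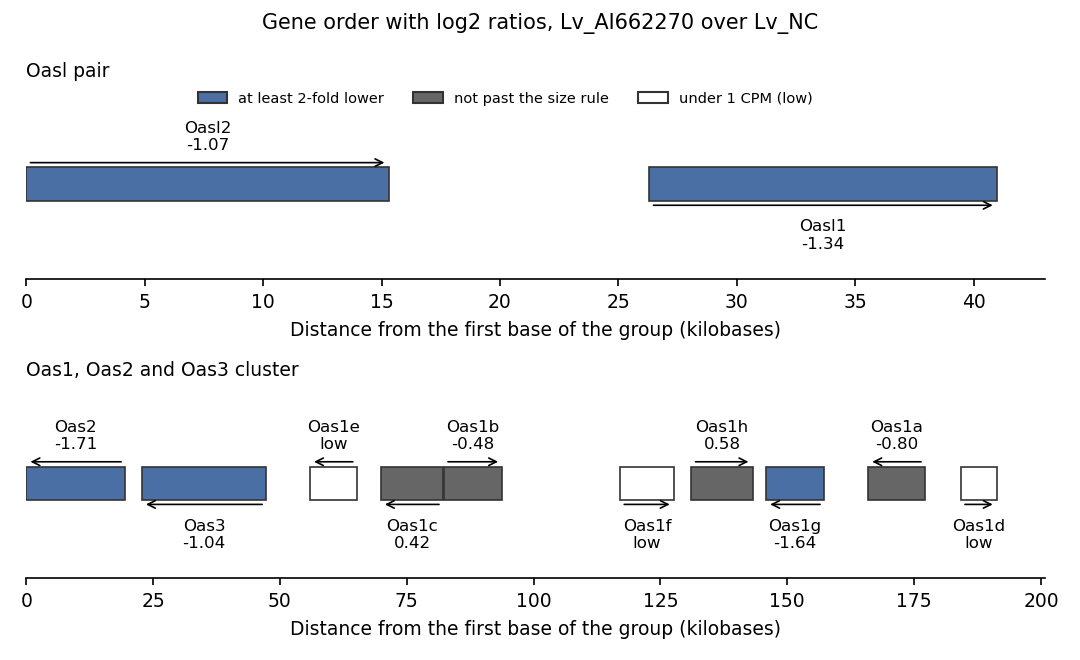
Order of the OAS genes along chromosome 5 (x axis, kilobases from the first base of each group), with arrows for strand and log2 ratios of the Lv_AI662270 library over the Lv_NC library under each name. Blue genes were at least 2-fold lower, grey genes were not past that rule and white genes were below 1 CPM; Oas2, Oas3 and Oas1g are blue while Oas1a, Oas1b and Oas1c are grey.

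Promoter sequence is shown because the family is known for interferon control and because close copies differed in these libraries. RefSeq windows (GRCm38.p6, 250 bases before to 50 after the annotated start) were held for 6 of the 8 members, all but Oas1b and Oas2. Shown are the 250 bases before the start of the 4 members that hold the motif described next. Capitals mark matches on either strand to the core of the interferon-stimulated response element, TTTCNNTTTC or its reverse complement GAAANNGAAA. Overlapping matches are joined.
Oas1g, chr5:120887614-120887863, minus strand: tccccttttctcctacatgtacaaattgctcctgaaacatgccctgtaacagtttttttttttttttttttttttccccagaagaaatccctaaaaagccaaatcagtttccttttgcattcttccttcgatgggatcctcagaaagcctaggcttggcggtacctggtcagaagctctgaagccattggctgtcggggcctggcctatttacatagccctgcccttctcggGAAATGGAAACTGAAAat
Oas1a, chr5:120907526-120907775, minus strand: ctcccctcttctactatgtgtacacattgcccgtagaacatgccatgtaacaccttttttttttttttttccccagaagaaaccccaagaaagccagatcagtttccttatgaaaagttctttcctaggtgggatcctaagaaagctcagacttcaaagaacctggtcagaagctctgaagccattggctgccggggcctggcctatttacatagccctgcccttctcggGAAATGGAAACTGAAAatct
Oas1c, chr5:120812515-120812764, minus strand: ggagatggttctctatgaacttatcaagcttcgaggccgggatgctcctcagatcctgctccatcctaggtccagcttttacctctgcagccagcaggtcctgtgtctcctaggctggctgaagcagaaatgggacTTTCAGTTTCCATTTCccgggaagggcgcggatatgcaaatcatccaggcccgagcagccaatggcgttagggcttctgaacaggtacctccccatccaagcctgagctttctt
Oas3, chr5:120777660-120777909, minus strand: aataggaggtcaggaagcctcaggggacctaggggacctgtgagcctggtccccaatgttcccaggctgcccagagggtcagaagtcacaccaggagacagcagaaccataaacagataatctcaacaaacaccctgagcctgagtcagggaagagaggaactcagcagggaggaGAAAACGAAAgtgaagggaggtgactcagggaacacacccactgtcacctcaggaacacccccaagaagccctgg
The core was present in the windows of Oas1g, Oas1a, Oas1c and Oas3, and 3.43% of all 32817 RefSeq windows hold it. Oas1a and Oas1g share an unbroken stretch of 73 bases over the start, and were 94.6% identical over 148 bases compared at that end of the windows. Both hold 2 overlapping cores, at bases -20 to -5 before the Oas1a start and -18 to -3 before the Oas1g start. Oas1c carries the same letters on its opposite strand, and the longest stretch it shares with Oas1a is CGGGAAATGGAAACTGAAA. The Oas1c cores lie from -114 to -99 before the Oas1c start. Oas1b starts on the other strand with 120 bases between the listed gene starts, so these cores sit 22 to 7 bases before the listed start of Oas1b. The stricter core GTTTCNNTTTC was in the windows of Oas1a, Oas1c and Oas1g and in 0.814% of all windows. The gamma-activated site TTCNNNGAA, a palindrome, matched in Oas1a alone, from -98 to -90, and in 8.29% of all windows. No core was found in the windows of Oasl1 and Oasl2, which says only that these letters are not in these 300 bases.

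**Figure D2:**
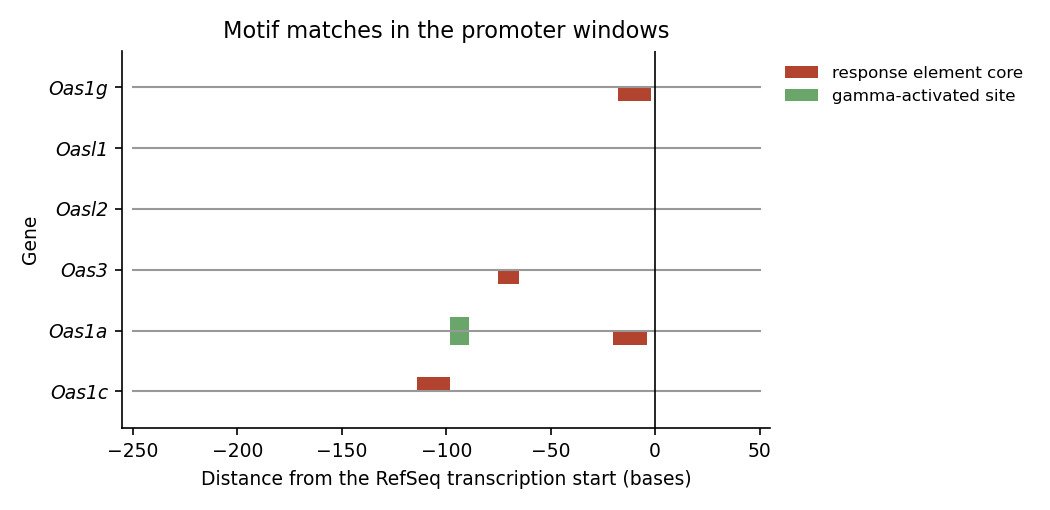
Motif matches in the 6 RefSeq promoter windows, plotted by distance from the annotated transcription start in bases, with genes ordered from the lowest ratio at the top. Bars above a line are on the gene's strand and bars below on the other, and a bar on both sides is the palindromic site; the response element core is near the start in Oas1g and Oas1a, at -75 to -66 in Oas3 and at -114 to -99 in Oas1c.

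The comparison of interest is the line carrying AI662270 against the control line. Oas2, Oas1g, Oasl1, Oasl2 and Oas3 were lower in the Lv_AI662270 library by at least 2-fold, Oas1a and Oas1b were lower by less, and Oas1c was slightly higher. A gene was called lower or higher when its log2 ratio, with 0.5 CPM added to both levels, reached 1 in size and the 95% exact counting interval of the ratio did not include 1. All 8 members passed the minimum mean of 1 CPM. By that size rule 5 of 8 were lower, where 5.72% of 13268 measured genes were, and 0 were higher, where 5.59% of measured genes were. The median log2 ratio of the 8 was -1.05, and that of all measured genes was -0.02. Scaling by total counts or by upper quartiles left 3 lower (Oas1g, Oas2 and Oasl1), since Oasl2 and Oas3 lie close to the 2-fold line. A bracketed range in what follows is the 95% interval, which covers counting error only. It treats counts as independent. No molecular identifiers are described, so repeated reads of 1 molecule cannot be told apart and the intervals may be too narrow.

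The synthetases were lower to different degrees. Oas2 encodes a synthetase with paired OAS units and had 217 counts (13.9 CPM, 12.1 to 15.9) in the Lv_AI662270 library, against 712 counts (46.8 CPM, 43.5 to 50.4) in the Lv_NC library. Its level was 3.36-fold lower (2.88 to 3.93), the lowest ratio in the family, and ranked 218 from the lowest among the 13268 measured genes. Oas3 encodes the largest synthetase, which in human cells is the main source of 2-5A. It had 2285 counts (147 CPM, 141 to 153) in the Lv_AI662270 library and 4587 counts (302 CPM, 293 to 311) in the Lv_NC library. Oas3 was 2.06-fold lower (1.96 to 2.16), so its interval includes folds under 2. In cultures of this kind, fewer cells expressing a gene and less RNA per cell cannot be told apart.

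Oas1a and Oas1g encode active single-unit synthetases of the mouse and are close copies. Oas1g had 582 counts (37.4 CPM, 34.4 to 40.5) in the Lv_AI662270 library and 1791 counts (118 CPM, 112 to 123) in the Lv_NC library, and was 3.15-fold lower (2.87 to 3.47). Oas1a had 2032 counts (130.4 CPM, 125 to 136) in the Lv_AI662270 library and 3463 counts (228 CPM, 220.3 to 235) in the Lv_NC library. It was 1.75-fold lower (1.65 to 1.85) and not past the size rule. The intervals of these folds do not overlap. The promoter windows were 94.6% identical over the 148 bases compared, and the part of promoter sequence in this difference was not tested. For every Oas1g count there were 3.49 Oas1a counts in the Lv_AI662270 library and 1.93 in the Lv_NC library, a change of 1.81-fold (1.62 to 2.02) that does not depend on how libraries are scaled.

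The split of reads between this pair is uncertain. In GENCODE transcripts, 57.6% of the distinct 50-base words of Oas1a and 45.7% of those of Oas1g also occur in another gene, nearly all of them in the other member of the pair. Neither the read length nor the handling of reads with several matches is given in the sources used here, and the part of such reads in the difference between Oas1a and Oas1g was not tested. Summed, the pair had 2614 counts in the Lv_AI662270 library and 5254 in the Lv_NC library, 2.06-fold lower (1.97 to 2.16), and that sum does not depend on the split within the pair. For the other members the share of such words was 15.1% for Oas1c, 2.98% for Oas1b, 0.521% for Oas3, 0.138% for Oasl2, and 0 for Oas2 and Oasl1.

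Oas1b and Oas1c, which start next to each other on opposite strands, differed least from the control. Oas1b, the gene whose full-length allele gives mice resistance to flaviviruses, had 402 counts (25.8 CPM, 23.3 to 28.4) in the Lv_AI662270 library and 549 counts (36.1 CPM, 33.2 to 39.3) in the Lv_NC library. The ratio for Oas1b was 0.714 (0.627 to 0.814), short of the size rule. Oas1c was the one member with the higher level in the Lv_AI662270 library, with 149 counts (9.56 CPM, 8.09 to 11.2) there and 107 counts (7.04 CPM, 5.77 to 8.50) in the Lv_NC library. The ratio for Oas1c was 1.36 (1.05 to 1.76), also short of the size rule. Set against each other within a library, there were 0.371 Oas1c counts for each Oas1b count in the Lv_AI662270 library and 0.195 in the Lv_NC library, 1.90-fold apart (1.42 to 2.54). The antisense gene Gm43069 overlaps Oas1c and had 1 count in each library. The 4 Oas1 members together had 3165 counts in the Lv_AI662270 library and 5910 in the Lv_NC library, 1.91-fold lower (1.83 to 1.999).

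The OAS-like pair held most of the family's reads, and both genes were lower in the Lv_AI662270 library. Oasl2, an active synthetase in the mouse with a ubiquitin-like tail, had 4268 counts (274 CPM, 266 to 282) in the Lv_AI662270 library and 8730 counts (574 CPM, 562 to 586) in the Lv_NC library, 2.10-fold lower (2.02 to 2.17). Oasl1, which in the mouse lacks synthetase activity and restrains translation of Irf7 mRNA, had 1774 counts (114 CPM, 109 to 119) in the Lv_AI662270 library and 4391 counts (289 CPM, 280.3 to 297) in the Lv_NC library. Oasl1 had a ratio of 0.394 (0.373 to 0.417), 2.54-fold lower and more than its neighbour beyond counting error, with 2.41 Oasl2 counts per Oasl1 count in the Lv_AI662270 library and 1.99 in the Lv_NC library. Together the pair had 6042 counts in the Lv_AI662270 library and 13121 in the Lv_NC library.

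**Figure D3:**
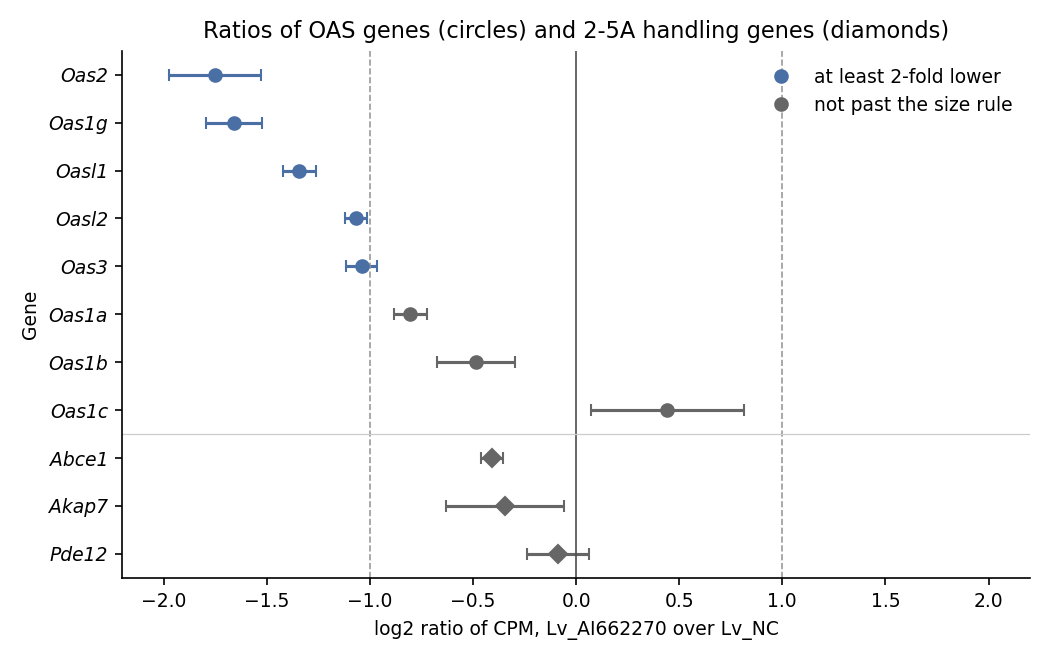
log2 ratio of CPM, Lv_AI662270 over Lv_NC, without a pseudocount, for the 8 OAS genes (circles) and 3 genes linked to 2-5A handling (diamonds); bars are 95% exact counting intervals and dashed lines mark 2-fold. Oas2 and Oas1g lie farthest left, Oas1c is the only gene right of 0, and no diamond is past the size rule.

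All 28 pairs of members were compared through the ratio of their counts within each library, which is free of scaling. In 26 pairs the interval of the ratio between libraries lay apart from 1. The exceptions were Oas1g with Oas2, at 1.07 (0.889 to 1.28), and Oas3 with Oasl2, at 1.02 (0.957 to 1.08). The widest gap was between Oas1c and Oas2, at 4.57 (3.38 to 6.18). The 8 members therefore did not share 1 common fold within counting error. Spread between cultures was not measured and could widen each interval. The uncertain split of reads between Oas1a and Oas1g, which the intervals do not cover, enters every pair that holds either gene.

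Levels of different genes were compared as CPM per kilobase of the listed gene length. Oas1a was highest in both libraries, at 69.2 CPM per kilobase in the Lv_AI662270 library and 121 in the Lv_NC library. In the Lv_AI662270 library it was followed by Oasl1 (43.7), Oasl2 (43.0), Oas3 (20.7), Oas1g (16.0), Oas1b (13.0), Oas1c (3.98) and Oas2 (3.13). The counting intervals of Oasl1 and Oasl2 overlapped in that order, as did those of Oas1c and Oas2. In the Lv_NC library the levels per kilobase after Oas1a were 111 for Oasl1, 90.1 for Oasl2, 50.3 for Oas1g, 42.7 for Oas3, 18.1 for Oas1b, 10.5 for Oas2 and 2.93 for Oas1c, and no neighbours overlapped. Oas1g thus stood below Oas3 in the Lv_AI662270 library and above it in the Lv_NC library, and Oas2 and Oas1c also traded places, the second exchange within counting error in the Lv_AI662270 library. The places of Oas1a and Oas1g also depend on the uncertain split of reads between them, which the counting intervals do not cover. Among measured genes, Oas1a exceeded 95.3% in level per kilobase in the Lv_AI662270 library and 97.6% in the Lv_NC library. Oas2 exceeded 28.6% in the Lv_AI662270 library and 58.1% in the Lv_NC library.

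**Figure D4:**
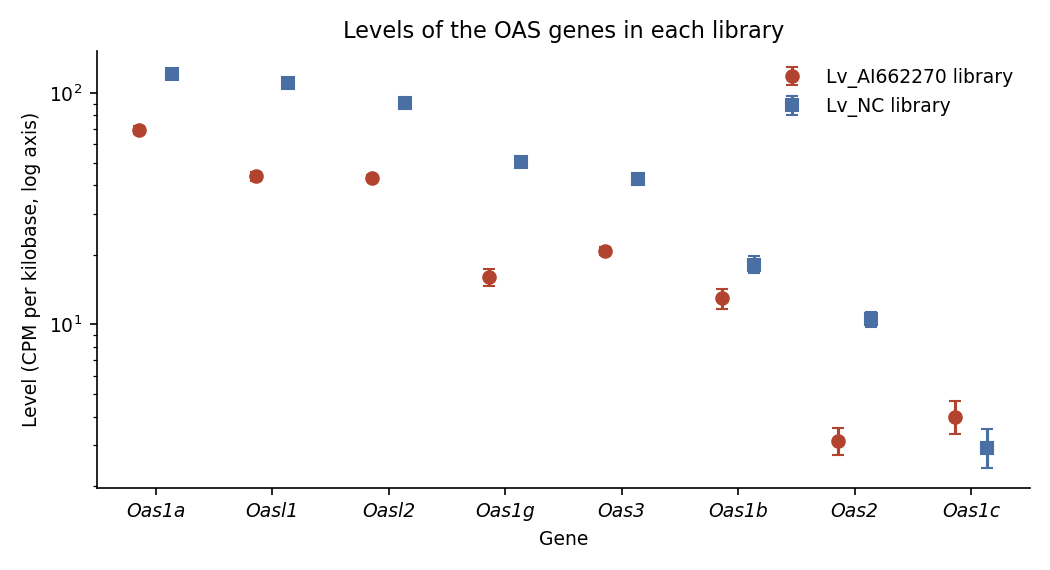
Level of each OAS gene in CPM per kilobase (log axis) in the Lv_AI662270 library (red circles) and the Lv_NC library (blue squares), with 95% Poisson counting intervals and 1 library per group. Red lies below blue for every gene except Oas1c, and the gap is widest for Oas2 (3.13 in the Lv_AI662270 library, 10.5 in the Lv_NC library) and Oas1g (16.0 in the Lv_AI662270 library, 50.3 in the Lv_NC library).

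The family as a whole took 11709 counts, 0.0777% (0.0763 to 0.0792, Clopper-Pearson) of the Lv_AI662270 library, and 24330 counts, 0.155% (0.153 to 0.157) of the Lv_NC library. Its summed level was 2.13-fold lower (2.08 to 2.18). The 4 remaining Oas1 genes were nearly silent. Oas1h had 33 counts in the Lv_AI662270 library and 19 in the Lv_NC library and was the only one above the minimum, with a log2 ratio of 0.58 that did not pass the size rule. Oas1d, Oas1e and Oas1f had 8, 2 and 1 counts in the Lv_AI662270 library, against 7, 5 and 0 in the Lv_NC library. In the authors' deposited table, Oas1g, Oas2 and Oasl1 were among the 897 genes listed as changed, with log2 fold changes of -1.66, -1.75 and -1.34. The other 5 members were absent from that list, and the authors' deposited table gave Oasl2 and Oas3 as -1.07 and -1.04.

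Of 3 genes linked to the handling of 2-5A, none passed the size rule, beside 5.72% lower and 5.59% higher over all measured genes. With 3 genes, a count of 0 does not set the list apart from those shares. All 3 log2 ratios were below 0, with a median of -0.33. Abce1, a ribosome recycling factor known in human cells as an inhibitor of the 2-5A pathway, had 4826 counts in the Lv_AI662270 library and 6248 in the Lv_NC library, a ratio of 0.754 (0.726 to 0.783). Of 2 enzymes that degrade 2-5A, Pde12 had 720 counts in the Lv_AI662270 library and 746 in the Lv_NC library, at a ratio of 0.942 (0.849 to 1.04). The other, Akap7, had 185 counts in the Lv_AI662270 library and 229 in the Lv_NC library, at a ratio of 0.788 (0.646 to 0.961).

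Among other genes of RNA sensing and interferon signalling, 1 or 2 members of each list were lower by the size rule and none was higher. Of 10 RNA sensor genes 9 had a log2 ratio below 0, and the list median was -0.63. With a 1.5-fold threshold 6 of them were lower, as were 1893 of 13268 measured genes. By the size rule 2 were lower and 0 higher, beside 5.72% lower and 5.59% higher over all measured genes. These were Ifih1, which encodes the long double-stranded RNA sensor MDA5 (1168 counts in the Lv_AI662270 library, 3375 in the Lv_NC library, 2.96-fold lower), and Zc3hav1, which encodes the zinc-finger antiviral protein (3112 counts in the Lv_AI662270 library, 6865 in the Lv_NC library, 2.26-fold lower). In interferon signalling 1 of 12 measured genes was lower, Stat2, a subunit of the factor that binds the response element, with 1638 counts in the Lv_AI662270 library and 3366 in the Lv_NC library. Stat2 was 2.11-fold lower (1.98 to 2.24) and lost its place when libraries were scaled by total counts. The median of that list was -0.04, and 1 of 12 is near the 5.72% of all measured genes that were lower. Ifnb1, which was picked out after its values were seen, had 0 counts in the Lv_AI662270 library and 9 in the Lv_NC library, below the level at which a gene counted as measured. Of 6 feedback inhibitors 1 was lower and 0 higher, beside 5.72% lower and 5.59% higher over all measured genes. With 6 genes, 1 call does not set the list apart from those shares. The gene was Usp18, which blocks the type I interferon receptor, lower by 3.03-fold (2.81 to 3.28). Log2 ratios were below 0 for 4 of the 6 and above 0 for 2, with a list median of -0.14. Socs3 had the highest ratio, with 408 counts in the Lv_AI662270 library and 224 in the Lv_NC library. Socs3 was not past the size rule.

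A chosen list of 40 other interferon-stimulated effectors, antiviral genes that interferon induces, had a median close to that of the OAS genes. The list was chosen with earlier results of these data known, so its count of lower genes is a description and not a test. Of 39 measured, 20 were lower and 0 higher, beside 5.72% lower and 5.59% higher over all measured genes, with a median log2 ratio of -1.04 beside -1.05 for the OAS genes. The range ran from -3.27 for Rsad2 to 0.77, and Ifi44, Ifit3 and Cmpk2 followed Rsad2 at -2.01, -1.99 and -1.91. The 3 effectors nearest the OAS median over these 2 libraries were Ccl5, a chemokine (-1.04), Lgals9, which encodes a galectin (-1.04), and Uba7, which encodes the activating enzyme for ISG15 (-1.11). With 2 libraries, likeness is only the closeness of 2 log2 ratios. The response element core was in the windows of 15 of 32 effectors with a RefSeq window, beside 3.43% of all windows. An effector was counted if any of its windows held the core, and Gbp3 and Apobec3 also had a window without it. The core was present in some effectors that were not lower, such as Bst2 and Ifitm3. It was absent from some that were lower, such as Helz2 and Ifi44.

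**Figure D5:**
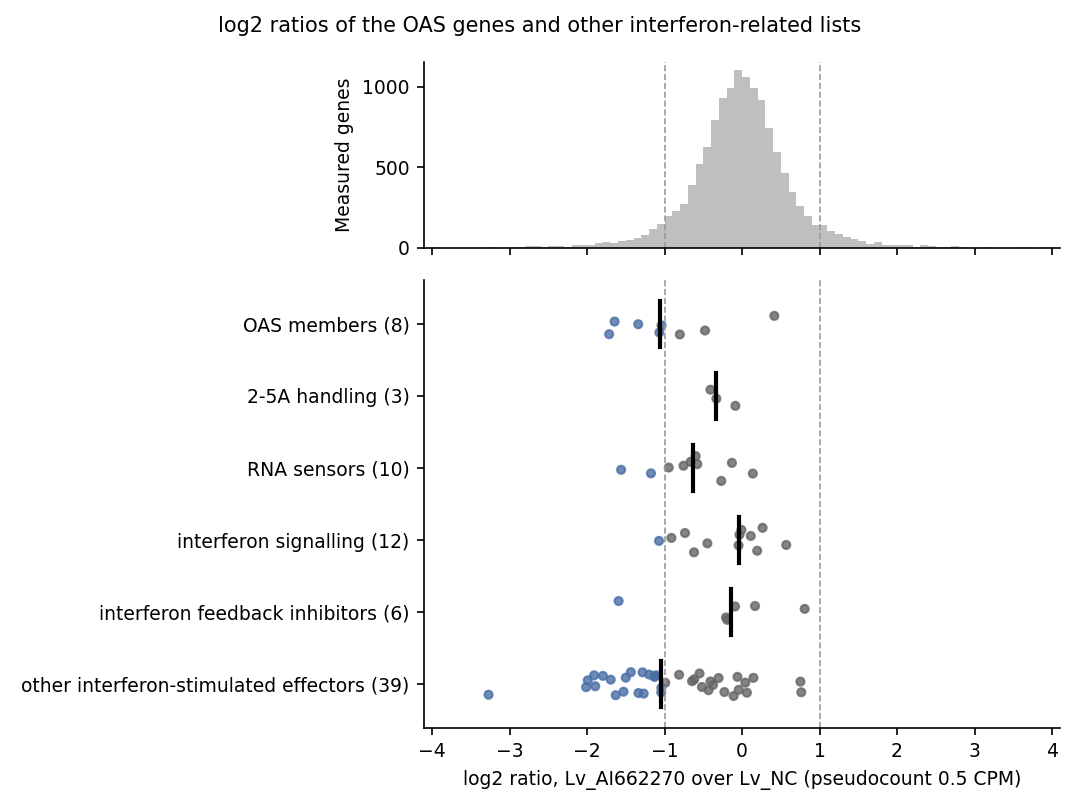
Top, number of measured genes by log2 ratio of Lv_AI662270 over Lv_NC, with values beyond -4 or 4 put in the end bins; bottom, the same ratio for each measured member of 6 gene lists (number measured in brackets, vertical spread arbitrary), blue where lower by the size rule, with black bars for medians and dashed lines at 2-fold. The OAS and effector medians, -1.05 and -1.04, lie near the 2-fold line, and the median of interferon signalling, -0.04, lies near 0.

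None of the nearest measured genes beside the loci was lower or higher by the size rule. Their distances from the loci ran from 4.24 kilobases for 2210016L21Rik to 283 kilobases for Rpl6. Ptpn11, the nearest after the cluster, was 209 kilobases away. The nearest measured genes on either side of the Oas1, Oas2 and Oas3 cluster were Rasal1 and Dtx1 before it, with log2 ratios of -0.61 and -0.28, and Ptpn11 and Rpl6 after it, with -0.08 and 0.19. Rpl6 has processed pseudogenes, so its value is uncertain. Beside the Oasl pair, 1500011B03Rik and 2610524H06Rik had 0.55 and 0.67, and 2210016L21Rik and Sppl3 had -0.10 and -0.06. Over the 898 measured genes of chromosome 5 the median was 0.11, and 5.12% were lower by the rule.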

How the data were processed

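Per the submitters' processing notes, CASAVA 1.4 and TopHat2 were used with build mm10. No read counter, annotation release or strand setting is given in the sources used here, and the labels and design text differ on whether RNA was polyA-selected or ribosome-depleted. The authors deposited raw counts per gene and FPKM, whose divisor was 15391166 in both libraries. The deposited log2 fold changes, and the deposited p-values behind the authors' list, compare single libraries and were used only as that list. Rows without an Ensembl identifier (181) took 0.136% of Lv_AI662270 counts and 0.270% of Lv_NC counts.

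Counts were scaled with TMM in edgeR 4.0.16 (R 4.3.3), and ratios and Clopper-Pearson or Poisson intervals were computed in Python 3.11.15 with scipy 1.17.1. The factors were 1.03 for the Lv_AI662270 library and 0.967 for the Lv_NC library. Alternatives were total counts, DESeq2 1.42.0 size factors, upper quartiles, pseudocounts of 0.1 and 2 CPM, other filters (none, 5 CPM), thresholds of 1.5-fold and 3-fold, FPKM and a stricter motif. All members, the genes of the list on 2-5A handling (1 further gene is not reported here), up to 4 past the rule per other pathway list, flanking genes and the nearest effectors were named. The members and lists were chosen with earlier results of these data known. Protein identity was not computed, and shared 50-base words replaced it.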

Additional observations from a re-analysis of the deposited data

How the results depend on the processing

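The number of OAS genes lower by the size rule, 5 with TMM at 2-fold, was 3 with total counts and 3 with upper quartiles, 5 with DESeq2 size factors, with either other pseudocount and with either other filter, 6 at 1.5-fold (Oas1a in addition) and 2 at 3-fold (Oas1g and Oas2). None was higher under any of these. The DESeq2 size factors were 1 in both libraries, so that setting compared the counts unscaled. Oas3 had log2 ratios of -0.94 with total counts, -0.97 with upper quartiles and -0.99 on FPKM, and Oasl2 had -0.97 and -0.998 with the first 2 of these. No log2 ratio of a member changed sign. The median over the members was -0.95 with total counts and -0.98 with upper quartiles. The log2 ratio of the family's summed counts was -0.99 with total counts, -1.06 with DESeq2 size factors and -1.02 with upper quartiles, against -1.09 with TMM, and that of the Oas1 sum was -0.84 with total counts and -0.87 with upper quartiles, against -0.94. Total counts moved the median of all genes to 0.08. Over all measured genes 1893 were lower and 1705 higher at 1.5-fold, 262 and 247 at 3-fold, and 400 were higher with 2 CPM added and 391 at a minimum of 5 CPM. No paired analysis was possible because each group had 1 library. Depth limits Oas1c most, at 149 and 107 counts.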
